A study of Mus musculus with 64 samples.

Results

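The change in gene expression between 6 and 9 months of age was measured in the microglia of 8 male mice, 4 of each age, out of 64 mice in the series. The mice were chosen by their labels alone, as the PBS-treated males of these ages. All were wild-type C57BL/6J animals, and 1 library was made from each mouse. Microglia had been sorted from the brain as live cells positive for CD11b with low CD45, and their polyadenylated RNA was amplified and sequenced in bulk. The series as a whole followed PBS-treated females and males at 7 ages each, with LPS-treated females at 3 of them. The comparison asks what changes in male microglia between these early adult ages. The sort is the only definition of the cells, so that other CD11b-positive cells in the gate contribute to every value, and in bulk RNA fewer cells of a type and less RNA per cell cannot be told apart.

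Microglia are the resident macrophages of the brain. In the healthy adult they survey the tissue and express a characteristic set of surface receptors and transporters, among them the purinergic receptor P2ry12, the fractalkine receptor Cx3cr1 and Tmem119, which are widely used to tell them from macrophages of the blood and brain borders. C-type lectins, Ms4a membrane proteins and paired inhibitory receptors are found across myeloid cells and are commonly higher in monocytes and macrophages than in resting microglia.

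The table held 5647 genes, and the values of the 8 libraries summed to between 408457 and 497575. A value is an FPKM (fragments scaled to transcript length and library size) that the authors adjusted for batches and rounded, called the deposited value here. Log2 fold changes are 9 minus 6 months on log2(value + 1), and were fitted by limma across all 27 PBS-treated males. A gene was called when its Benjamini-Hochberg adjusted p was under 0.05 and its fold change over 1.5, and is said to be nominally higher or lower where it met that fold with an unadjusted p under 0.05. Because the median gene was higher at 9 months by 0.13 on the log2 scale, each direction was also read after median-ratio scaling, which divides each library by the median ratio of its genes to the average library and brought that median to -0.01.

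As deposited, 40 of 5647 genes (0.708%) were called, 31 higher at 9 months (0.549%) and 9 lower (0.159%). After median-ratio scaling 12 were called (0.213%), 2 higher (0.0354%) and 10 lower (0.177%). The 2 fits shared 11 genes. Tgm2 and Slc2a5 were called higher in both, and Pla2g7, Cyb5r4, Clec4a1, Clec4n, Ms4a4a, Ms4a6c, Lilrb4a, Wfdc17 and Bex3 were called lower in both. Pilra was called lower after scaling alone. The genes called lower in both fits include the C-type lectin receptors Clec4a1 and Clec4n and the inhibitory receptor Lilrb4a. The genes called higher as deposited include the microglial genes Tmem119, Cx3cr1, Olfml3 and Slc2a5, of which Slc2a5 alone was called after scaling too.

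Pla2g7 (chr17:43568098-43612201, + strand, mm10), the phospholipase that hydrolyses platelet-activating factor and oxidised phospholipids, had the lowest adjusted p of all genes. Its deposited values were 68, 102, 78 and 55 in the 6-month mice 1 to 4, and 30, 26, 23 and 23 in the 9-month mice 1 to 4. The groups did not overlap, and every 9-month mouse lay under the lowest 6-month mouse. The mean fell from 75.8 ± 19.9 to 25.5 ± 3.32 (SD, n = 4 mice each), with a log2 fold change of -1.51 (SE 0.22, limma adjusted p = 0.00188) and of -1.64 after scaling (limma adjusted p = 0.000294).

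Cyb5r4 (chr9:87022014-87077774, + strand), a cytochrome b5 reductase of the endoplasmic reticulum, was a gene of low level with little spread. Its values were 20, 22, 22 and 17 at 6 months and 8, 8, 10 and 9 at 9 months. The groups were apart, with a log2 fold change of -1.12 (SE 0.20, limma adjusted p = 0.00753).

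A pair of C-type lectin receptors of the same gene cluster on chromosome 6 fell. Clec4a1 (chr6:122921848-122934619, + strand) stood at 54, 83, 44 and 56 in the 6-month mice and at 26, 31, 26 and 27 in the 9-month mice, a log2 fold change of -1.05 (SE 0.19, limma adjusted p = 0.00929). Clec4n, which encodes the fungal mannan receptor dectin-2, stood at 49, 44, 60 and 37 and then at 16, 6, 22 and 20, a log2 fold change of -1.63 (SE 0.39, limma adjusted p = 0.0413). Neither gene's groups overlapped. Of the 11 genes measured whose symbols start with Clec, a family looked up after the values were seen, these were the only ones called. Over all genes 0.159% were called lower. The neighbouring Clec4a3 had a log2 fold change of -0.47 (limma adjusted p = 0.154) and Clec4a2 one of -0.08 (limma adjusted p = 0.919).

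Ms4a genes encode small proteins that cross the cell membrane several times, and 2 of them, from the same cluster on chromosome 19, were called lower. Ms4a4a (chr19:11375523-11392790, + strand) was at 134, 85, 48 and 92 at 6 months and at 29, 22, 29 and 34 at 9 months (log2 fold change -1.55, SE 0.37, limma adjusted p = 0.0399). Ms4a6c (chr19:11469366-11482192, + strand) was at 90, 82, 132 and 146 and then at 55, 57, 59 and 45 (log2 fold change -1.01, SE 0.23, limma adjusted p = 0.0339). In both genes the highest 9-month mouse lay under the lowest 6-month mouse. All 7 measured Ms4a genes, again looked up after the values were seen, lie on chromosome 19. Of these 6 had a log2 fold change below 0, against 1860 of all 5647 genes, and 0.159% of all genes were called lower. Ms4a4c went from a mean of 24.0 to 9.5 without being called (limma adjusted p = 0.119), and Ms4a4b was the exception, at 4.25 and 8.0 (log2 fold change 0.64, limma adjusted p = 0.332). Genes of the Ms4a and Clec4 clusters have close paralogues, and how the authors' counting divided reads between them is uncertain.

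Among inhibitory receptors, Lilrb4a (chr10:51490956-51496611, + strand), which carries inhibitory motifs in its cytoplasmic tail, was called lower. It was at 97, 76, 53 and 83 at 6 months and at 39, 40, 44 and 37 at 9 months, with groups apart (log2 fold change -0.90, SE 0.20, limma adjusted p = 0.0339). Its near-identical neighbour Lilr4b had a mean of 10 and then of 6 (limma adjusted p = 0.244), and reads shared between the pair make the split between them uncertain. Pilra, another inhibitory receptor, was at 20, 11, 16 and 15 and then at 9, 8, 9 and 10. Its log2 fold change was -0.70 as deposited (SE 0.18, limma adjusted p = 0.0606) and -0.83 after scaling (SE 0.18, limma adjusted p = 0.049).

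Wfdc17, a secreted protein of the whey acidic protein family made by activated macrophages, was at 139, 348, 435 and 141 in the 6-month mice and at 99, 94, 78 and 74 in the 9-month mice. Mice 2 and 3 of the younger group were far above mice 1 and 4, and all 4 were above the older group (log2 fold change -1.44, SE 0.28, limma adjusted p = 0.0206). Bex3, which encodes a small protein that binds the neurotrophin receptor p75, was at 11, 24, 27 and 13 and then at 5, 3, 11 and 5. Its groups met at 11 (log2 fold change -1.52, SE 0.35, limma adjusted p = 0.0367).

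**Figure D1:**
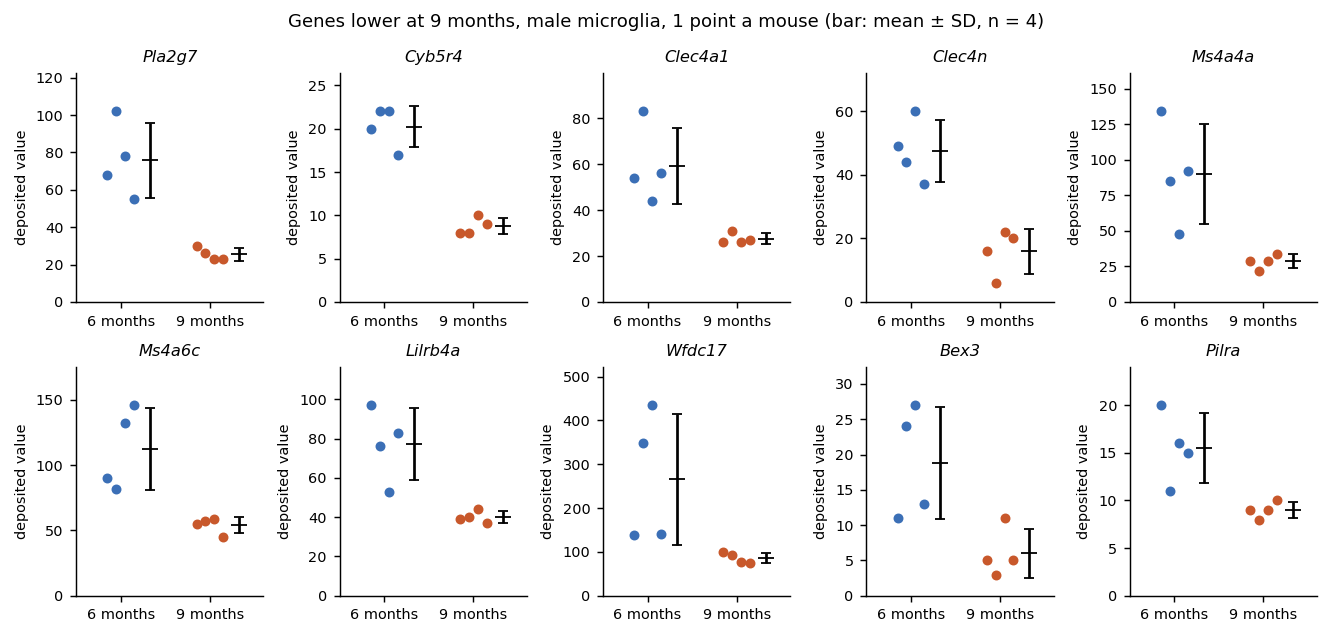
Deposited value (vertical axes, from 0) of the 10 genes called lower at 9 months after median-ratio scaling, with 1 point for each of the 4 mice of an age and a bar for the mean ± SD. The 9-month mice sit under every 6-month mouse in all panels but that of Bex3, where a mouse of each age is at 11. The 9-month points are the tighter ones on these linear axes, but on the log2 scale those of Clec4n and Bex3 are not.

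The promoters of some of these genes are shown because the genes were called in the same direction and because pairs of them neighbour each other in the genome. Whether their levels varied together between mice was not tested. Each sequence is the 250 bases before the gene's start in RefSeq (GRCm38.p6, the build of mm10), read 5′ to 3′ on the gene's strand, and capitals mark GGGCGG, the GC box, on either strand, so that its reverse complement is in capitals too. Clec4a1 is at chr6:122921598-122921847 (+), Cyb5r4 at chr9:87021779-87022028 (+), Ms4a4a at chr19:11375238-11375487 (+), Ms4a6c at chr19:11469118-11469367 (+), and the higher gene Olfml3 at chr3:103738002-103738251 (-).
Clec4a1: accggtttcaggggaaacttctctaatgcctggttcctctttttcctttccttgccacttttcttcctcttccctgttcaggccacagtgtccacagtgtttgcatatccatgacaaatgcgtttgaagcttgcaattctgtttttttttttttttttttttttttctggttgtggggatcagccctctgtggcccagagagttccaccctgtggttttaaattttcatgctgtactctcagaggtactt
Cyb5r4: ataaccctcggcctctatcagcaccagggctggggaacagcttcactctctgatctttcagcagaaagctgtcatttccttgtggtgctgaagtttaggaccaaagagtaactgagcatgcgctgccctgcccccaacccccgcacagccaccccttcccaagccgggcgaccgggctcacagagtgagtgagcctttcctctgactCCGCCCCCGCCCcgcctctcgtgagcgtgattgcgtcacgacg
Ms4a4a: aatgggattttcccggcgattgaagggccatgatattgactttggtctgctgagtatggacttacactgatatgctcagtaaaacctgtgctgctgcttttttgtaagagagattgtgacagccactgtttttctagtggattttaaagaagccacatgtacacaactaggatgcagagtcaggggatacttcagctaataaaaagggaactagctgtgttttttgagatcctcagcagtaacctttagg
Ms4a6c: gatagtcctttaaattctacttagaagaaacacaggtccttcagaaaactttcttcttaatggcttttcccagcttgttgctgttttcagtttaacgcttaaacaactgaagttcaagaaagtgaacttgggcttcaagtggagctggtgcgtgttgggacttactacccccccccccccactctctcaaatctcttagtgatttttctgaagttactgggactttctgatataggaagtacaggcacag
Olfml3: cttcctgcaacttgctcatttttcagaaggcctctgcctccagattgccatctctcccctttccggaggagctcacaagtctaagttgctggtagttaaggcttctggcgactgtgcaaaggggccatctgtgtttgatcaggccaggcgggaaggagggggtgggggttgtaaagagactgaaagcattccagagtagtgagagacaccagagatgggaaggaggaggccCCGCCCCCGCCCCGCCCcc
The promoters of Clec4a1, Ms4a4a and Ms4a6c held 42.8%, 42.0% and 42.4% G and C and no GC box, Cyb5r4 held 60.4% and 2 GC boxes, and Olfml3 57.6% and 3. A promoter was found for 4571 of the 5647 genes, for 23 of the 31 genes called higher and for 8 of the 10 called lower. Of 12 short motifs searched on both strands, none of which contains another, GGGCGG was in 14 of the 23 higher genes (60.9%), in 4 of the 8 lower genes (50%) and in 59.0% of all promoters. AGAACA, a half-site of the glucocorticoid receptor, was in 7 of 23 higher (30.4%), 1 of 8 lower (12.5%) and 11% of all. CCAAT was in 6 of 23 (26.1%), 2 of 8 (25.0%) and 36.4%. CACGTG was in 2 of 23 (8.7%), 0 of 8 and 9.47%. GAANNTTC was in 1 of 23 (4.35%), 1 of 8 (12.5%) and 5.21%. TGANTCA and GAGGAAGT were each in 1 of 23 (4.35%) and 0 of 8, against 3.92% and 3.02% of all. TATAAA, TTGCGCAA, TGACGTCA, GGACTTTCC and TTTCACTTT were in no promoter of either group, against 6.85%, 0.328%, 2.95%, 0.459% and 0.722% of all. These are matches of letters in a short window and nothing was tested with them.

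Tgm2 (chr2:158116402-158146436, - strand) had the largest fold change among the called genes. It encodes transglutaminase 2, which cross-links proteins and takes part in the uptake of apoptotic cells. Its deposited values were 3, 8, 4 and 22 in the 6-month mice and 41, 61, 68 and 52 in the 9-month mice. The groups did not overlap, and mouse 4 was the highest of the younger ones. The log2 fold change was 2.79 (SE 0.45, limma adjusted p = 0.0035), and 2.66 after scaling (limma adjusted p = 0.00359).

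Slc2a5 (chr4:150119283-150144169, + strand) encodes the fructose transporter GLUT5, which in the brain is found on microglia. It was at 280, 212, 362 and 327 at 6 months and at 560, 591, 539 and 541 at 9 months, with every older mouse above every younger one. The log2 fold change was 0.94 (SE 0.17, limma adjusted p = 0.00753), and 0.80 after scaling (SE 0.18, limma adjusted p = 0.0492). The other measured genes with symbols starting with Slc2a, a family looked up after the values were seen, were Slc2a8 (log2 fold change 0.86, limma adjusted p = 0.181) and Slc2a1 (0.25, limma adjusted p = 0.797), and neither was called.

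The other 29 higher genes were called as deposited and not after scaling, where the adjusted p of the 31 ranged from 0.00359 to 0.185. All 31 kept a log2 fold change above 0 there, from 0.46 to 2.66. Of the 31, 29 had groups that did not overlap, which held for 5.79% of all genes, and after scaling 21 had, against 5.15%. The exceptions as deposited were Olfml3 and Tomm34, whose groups overlapped or met. Because the genes were called from these same mice, their separation is a description and no further evidence.

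Several of these are genes by which microglia are recognised. Tmem119 was at 1425, 862, 1836 and 1761 at 6 months and at 2263, 2693, 2471 and 2590 at 9 months (log2 fold change 0.82, SE 0.19, limma adjusted p = 0.0399, and 0.145 after scaling). Cx3cr1 was at 1475, 556, 728 and 1585 and then at 1855, 1972, 1729 and 1971 (log2 fold change 0.93, SE 0.22, limma adjusted p = 0.0413, and 0.128 after scaling). Olfml3, a secreted matrix protein, was at 746, 622, 775 and 1441 and then at 1571, 1608, 1440 and 1560 (log2 fold change 0.86, SE 0.19, limma adjusted p = 0.0339, and 0.1 after scaling). In all 3 genes the older mice were close together and the younger ones wide apart, and 6-month mouse 4 was near or within the older group for Olfml3 and Cx3cr1.

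Also called higher were Vsir, the inhibitory checkpoint receptor VISTA, with a mean of 269 ± 78.7 at 6 months and of 418 ± 33 at 9 months (SD, n = 4; limma adjusted p = 0.0374), and Tlr12, a Toll-like receptor for profilin, at 6.5 ± 3 and 16.2 ± 3.95 (SD, n = 4; limma adjusted p = 0.0274). Sash3, a signalling adaptor of immune cells, and Sh2b2, an adaptor of receptor kinases, had log2 fold changes of 0.68 and 1.15. Of the 8 measured Toll-like receptor genes Tlr12 was the only one called, where 0.549% of all genes were called higher. Tlr2 had a log2 fold change of 1.14 with an adjusted p of 0.127 (limma).

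Of the 48 genes of the lysosome list, 0 were called by limma (4 were nominally higher, where 6.38% of all genes were). Outside that list, Pla2g15, the phospholipase A2 of lysosomes, was at 186, 142, 165 and 201 and then at 273, 297, 276 and 304 (log2 fold change 0.74, SE 0.15, limma adjusted p = 0.0247). Its groups were apart, and its direction was opposite to that of Pla2g7. The sialomucin Cd164 (0.65), the ESCRT subunit Vps37b (0.82), Derl1 of endoplasmic reticulum-associated degradation (0.67), the membrane protein Itm2c (0.67) and the Golgi sulfotransferase Gal3st4 (0.74) were called as well.

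Of the cytoskeleton, the alpha-tubulins Tuba1a (means 128 ± 35.4 and 246 ± 48.8, SD, n = 4; limma adjusted p = 0.0272) and Tuba1b (311 ± 24.7 and 481 ± 58.5, SD, n = 4; limma adjusted p = 0.0274) were called higher. Their coding sequences are nearly the same, and how reads were split between them is uncertain. Eif2s3x, the X-linked gamma subunit of the initiation factor eIF2, was at 13, 15, 12 and 14 and then at 23, 23, 21 and 23 (log2 fold change 0.70, SE 0.15, limma adjusted p = 0.0272). Its Y-linked copy Eif2s3y was at 34, 31, 33 and 28 and then at 21, 9, 36 and 20, with groups that overlapped (log2 fold change -0.67, SE 0.33, limma adjusted p = 0.295), and reads shared by the pair make the values of each uncertain. Also called were the ether-lipid monooxygenase Agmo (0.85), the lipogenesis regulator Mid1ip1 (0.82), the mitochondrial import factor Tomm34 (0.60), the TEAD cofactor Vgll4 (0.81), spartin or Spg20 (1.14), and Lrrc3 (0.72), Endod1 (0.84), Lzic (0.86), Lhfpl2 (0.88), Slc4a1ap (1.02), Gm20594 (1.1) and Csmd3 (1.17), each value a log2 fold change.

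**Figure D2:**
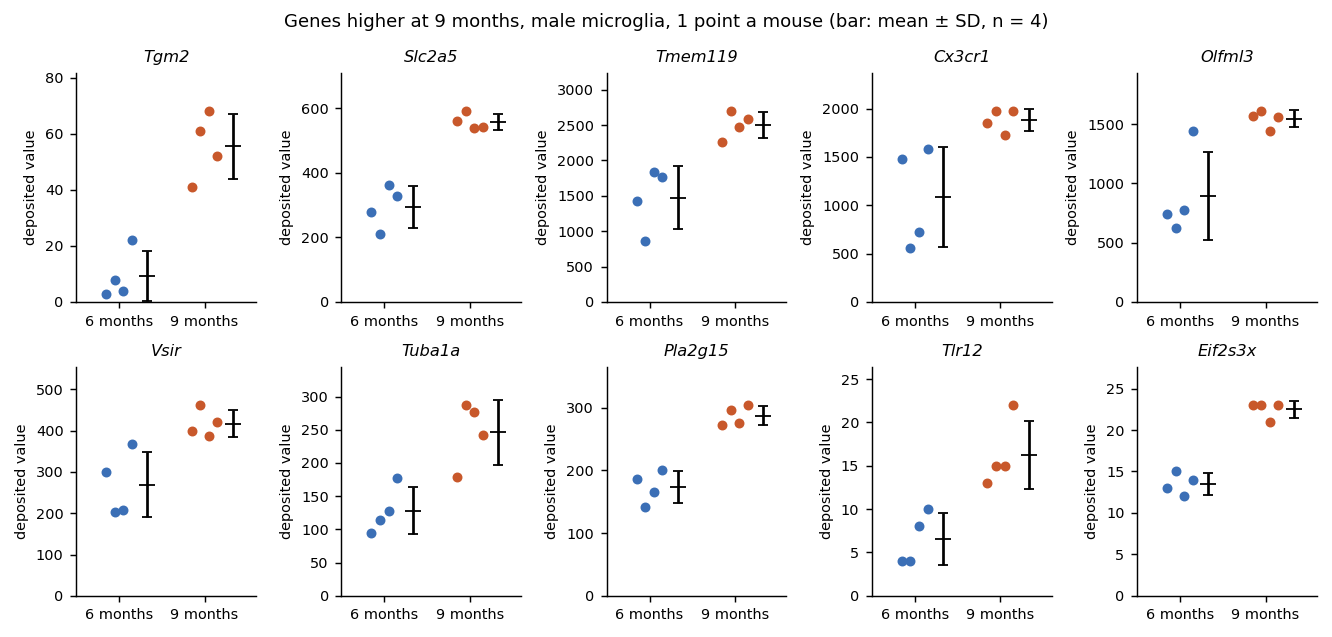
Deposited value (vertical axes, from 0) of 10 of the 31 genes called higher at 9 months as deposited, with 1 point for each of the 4 mice of an age and a bar for the mean ± SD. Tgm2 and Slc2a5 are the 2 also called after scaling, and 6-month mouse 4, the rightmost blue point, is the highest younger mouse for Tgm2, Cx3cr1, Olfml3, Vsir, Tuba1a, Pla2g15 and Tlr12.

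Gene lists put these genes in context. Of 34 genes of homeostatic microglia, all measured, 4 were called higher (Slc2a5, Cx3cr1, Olfml3 and Tmem119), against 0.549% of all genes, and 0 lower, against 0.159%. The median log2 fold change was 0.35, against 0.13 over all genes. After scaling 1 was called, against 0.0354% of all genes higher, 25 of 34 (73.5%) were above 0, against 48.6% of all genes, and the median was 0.21. The microglial identity factor Sall1 was at 118, 67, 37 and 87 and then at 124, 129, 94 and 143 (log2 fold change 0.76, limma adjusted p = 0.204). P2ry12 was at 2425, 2117, 1704 and 2430 and then at 2708, 2335, 3286 and 2603 (log2 fold change 0.34, limma adjusted p = 0.382).

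Of 24 disease-associated microglia genes, which mark microglia near amyloid plaques and in degeneration, 20 were measured and 0 were called by limma (1 was nominally lower, against 1.65% of all genes). Their median was -0.03, and -0.17 after scaling. It was Apoe, the main apolipoprotein of the brain, at 4906, 4987, 7160 and 6702 and then at 2295, 2371, 3409 and 2037. Its groups were apart, and its log2 fold change of -1.24 did not pass (SE 0.36, limma adjusted p = 0.0882, and 0.0998 after scaling). Spp1, or osteopontin, was at 21, 28, 29 and 24 and then at 9, 31, 37 and 9 (limma adjusted p = 0.63), and Cst7 at 11, 7, 7 and 12 and then at 8, 4, 11 and 5 (limma adjusted p = 0.623). Groups overlapped in both.

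Of 43 interferon response genes 31 were measured and 0 were called by limma. As deposited 2 were nominally lower, against 1.65% of all genes, and after scaling 6 were, against 3.24%. The median was -0.29 as deposited and -0.40 after scaling, where 25 of the 31 were below 0, against 2901 of all 5647 genes. Of 43 genes of NF-kB targets and cytokines 39 were measured and 0 were called by limma, with 5 nominally higher (6.38% of all genes were), 5 nominally lower (1.65% of all genes were) and a median of 0.01. The chemokine Ccl12 was at 357, 628, 803 and 849 and then at 161, 308, 262 and 144 (log2 fold change -1.58, SE 0.51, limma adjusted p = 0.117). The adhesion molecule Icam1 was at 103, 23, 65 and 125 and then at 197, 189, 169 and 207 (log2 fold change 1.50, SE 0.54, limma adjusted p = 0.149). The groups of both were apart, in opposite directions, and neither passed. Ccl4 was at 73, 130, 690 and 622 and then at 168, 124, 243 and 200 (limma adjusted p = 0.677), so that 6-month mice differed among themselves more than from the older ones. Il1b was at 39, 54, 64 and 76 and then at 27, 37, 48 and 63 (limma adjusted p = 0.515). Antigen presentation genes did not pass either: 0 of 14 class I and 0 of 9 class II genes were called by limma (1 and 0 nominally higher, none nominally lower), and Cd74, the class II invariant chain, had means of 2891 ± 658 and 3210 ± 697 (SD, n = 4; limma adjusted p = 0.759).

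Lists of metabolism and cell machinery held few calls. Of 88 genes with symbols starting with Slc, mostly solute carriers, 2 were called higher (Slc2a5 and Slc4a1ap, the latter not a carrier), against 0.549% of all genes. In this list 16 were nominally higher and 0 lower, where 6.38% of all genes were nominally higher. After scaling 8 were, against 2.99% of all. Their median was 0.28, and 0.16 after scaling with 64 of 88 above 0 (72.7%, against 48.6% of all). Of 16 measured lipid-handling genes out of 24, Pla2g15 was called higher and Pla2g7 lower, against 0.549% and 0.159% of all genes. Of 57 translation factors Eif2s3x was called higher, against 0.549% of all genes. Of 85 genes of the respiratory chain and ATP synthase 0 were called by limma (0 nominally), with a median of -0.02. After scaling 67 of 85 were below 0, against 2901 of all 5647 genes, with a median of -0.15. Of 81 cytosolic ribosomal protein genes 0 were called by limma (2 nominally higher, against 6.38% of all genes), with a median of 0.23, and of 0.09 after scaling. Of 47 chromatin enzymes 0 were called by limma (3 nominally higher, against 6.38% of all genes, and 1 nominally lower, against 1.65%). Their median was 0.14, with 30 above 0 and 17 below. Among them the histone demethylase Kdm6b was at 70, 60, 119 and 31 and then at 14, 26, 7 and 37, which overlapped (log2 fold change -1.77, SE 0.48, limma adjusted p = 0.0723).

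The other lists described here had no call by limma as deposited. Their medians after scaling were 0.18 for TGF-beta signalling (10 genes measured), 0.11 for Toll-like receptors and adaptors (16), 0.05 for zinc finger protein genes (56), 0.04 for heat shock and chaperones (52), 0.02 for ubiquitin ligases and deubiquitinases (124) and 0.01 for Rab GTPases and sorting nexins (52). They were -0.01 for glycolysis (18), -0.04 for lysosome (48), -0.06 for proteasome (44) and for glucocorticoid-responsive genes (13), -0.10 for cell cycle (13) and circadian clock (5), -0.11 for complement (12), -0.12 for mitochondrial ribosomal proteins (68), -0.13 for splicing factors and hnRNPs (76), -0.16 for immediate early genes (23), -0.17 for iron handling (13), -0.19 for cholesterol synthesis (10), -0.20 for the phagocyte NADPH oxidase (7) and -0.27 for Fc receptors (7). Mitochondrially encoded genes and neuronal markers had no measured member.

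**Figure D3:**
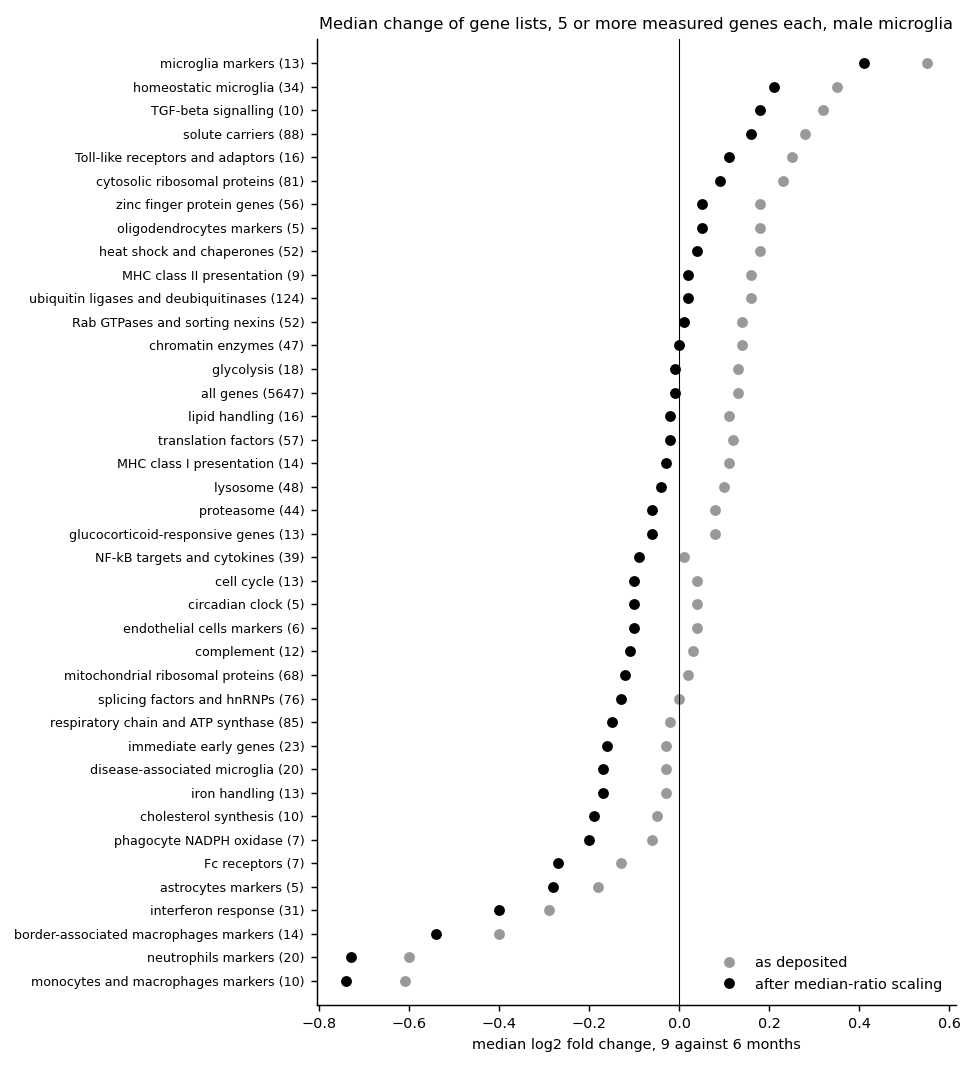
Median log2 fold change (horizontal axis) of gene lists with 5 or more measured genes, as deposited (grey) and after median-ratio scaling (black), with the number of genes in brackets. Microglia markers have the highest median in both, 0.55 and 0.41, and markers of monocytes and macrophages (-0.61 and -0.74) and of neutrophils (-0.60 and -0.73) the lowest.

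Summed levels of cell type markers were compared as well, and none passed after adjustment. With 4 mice of each age, passing would have needed most of the 11 lists to reach the smallest possible p. The lack of a pass therefore says little about any 1 list. The summed deposited value of 13 microglia markers ranged from 19034 to 23723 at 6 months and from 25142 to 27498 at 9 months, 1.28 times the younger mean. It includes Tmem119, Cx3cr1 and Olfml3, called higher in these same mice, so that this sum is not separate from those calls. That of 20 neutrophil markers ranged from 2383 to 3688 and then from 1493 to 2058 (0.61 times), and that of 10 monocyte and macrophage markers from 309 to 393 and then from 194 to 263 (0.65 times). The 3 erythroid markers summed to 141 to 367 and then to 7 to 120 (0.152 times). For each of these 4 lists the ages did not overlap, with a two-sided exact permutation p = 0.0286, the smallest that 4 against 4 mice allow, and 0.0786 adjusted over 11 lists. After median-ratio scaling this separation held for neutrophil (0.554 times), monocyte and macrophage (0.59 times) and erythroid markers (0.136 times, exact permutation p = 0.0286 for each), but the microglia markers overlapped (1.16 times, exact permutation p = 0.0571). The 14 markers of border-associated macrophages summed to 931 to 1152 and then to 740 to 984 (0.81 times, exact permutation p = 0.0571, adjusted p = 0.105), and after scaling their ages were apart (0.737 times, exact permutation p = 0.0286). The 4 markers of T and NK cells summed to 36.73 to 46 and then to 39 to 130 (2.23 times, exact permutation p = 0.114, adjusted p = 0.179). Endothelial (1.23 times), oligodendrocyte (0.902), astrocyte (0.939), B and plasma cell (1.12) and choroid plexus (0.528) markers had permutation p of 0.105 to 0.857 after adjustment. The library totals ranged from 408457 to 465148 and from 447013 to 497575 (exact permutation p = 0.257).

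No single marker of the other cell types was called by limma, and no marker was at 0 in all 8 mice. Of the 20 neutrophil markers 7 were nominally lower and 0 higher, against 1.65% of all genes nominally lower. S100a8 was at 1289, 1975, 1259 and 1113 and then at 651, 911, 892 and 649 (log2 fold change -0.84, SE 0.32, limma adjusted p = 0.165), and S100a9 at 388, 456, 323 and 411 and then at 207, 266, 249 and 208 (log2 fold change -0.76, SE 0.27, limma adjusted p = 0.148). The groups of both, which encode the calprotectin subunits of neutrophils, were apart. These 2 genes made up most of the summed neutrophil markers in every mouse, so that the sum largely restates them. The haemoglobin gene Hba-a1 was at 79, 96, 155 and 166 and then at 57, 4, 9 and 3 (log2 fold change -3.52, SE 1.14, limma adjusted p = 0.122). The border macrophage receptor Mrc1 was at 145, 118, 75 and 105 and then at 92, 106, 84 and 116, with groups that overlapped. The genes called lower include C-type lectin, Ms4a and inhibitory receptor genes, families found across myeloid cells. Their expression by cell type was not measured here, and the part that other cell types had in their change was not tested.

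**Figure D4:**
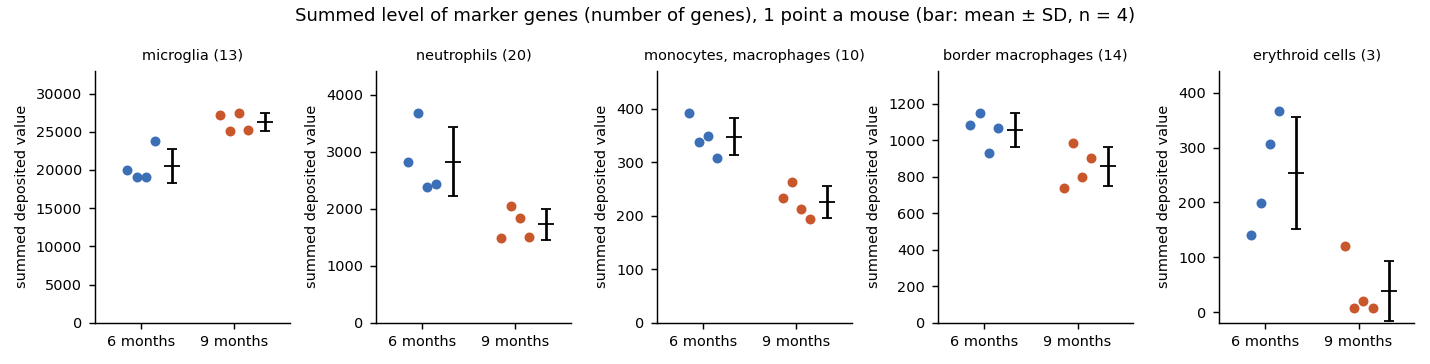
Summed deposited value of the marker genes of 5 cell types (vertical axes), with 1 point for each of the 4 mice of an age, a bar for the mean ± SD and the number of genes in brackets. Microglia markers are higher and neutrophil, monocyte and macrophage, and erythroid markers lower in every 9-month mouse than in any 6-month mouse, and border macrophage markers overlap. After median-ratio scaling, which is not drawn, the microglia markers overlap and the border macrophage markers do not.

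The 6-month mice varied more among themselves than males of the other ages. The median gene had an SD of 0.363 on the log2 scale at 6 months and of 0.225 at 9 months, and the SD was wider at 6 months for 4391 of 5647 genes (77.8%). At the other ages of males it ran from 0.193 at 12 months, where there were 2 mice, to 0.307 at 19 months. Among the 34 homeostatic genes the median SD was 0.408 at 6 months and 0.168 at 9 months. Across genes, which are not independent replicates, 6-month mouse 4 had a higher median correlation with the 9-month mice (r = 0.951) than with the other mice of its own group (r = 0.911), as did mouse 1 (0.927 and 0.906) and mouse 2 (0.909 and 0.906), while mouse 3 did not (0.899 and 0.904). The 9-month mice all had higher median correlations with their own group (0.958 to 0.961) than with the younger one (0.911 to 0.925). Without 6-month mouse 4 the number of called genes was 250, of which 221 were higher and 29 lower, and without 6-month mouse 1 it was 96. Without 6-month mouse 2 or 3 it was 14 or 9, and without 9-month mouse 1, 2, 3 or 4 it was 12, 5, 11 or 5. Pla2g7, Tgm2, Slc2a5, Clec4a1 and Cyb5r4 were called whichever of the 8 mice was left out. After scaling Slc2a5 was called in 2 of these 8 fits and the other 4 genes in all. With the 6- and 9-month groups alone in the fit of the deposited values, of these 5 only Pla2g7 and Tgm2 were called, and Slc2a5, Clec4a1 and Cyb5r4 were not.

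The other ages of males show where these levels stand. For 28 of the 31 higher genes the 9-month mean was the highest of the 7 ages, and for 26 of them the 6-month mean was the lowest. For the 9 lower genes the 9-month mean was the lowest of the 7 in all, and the 6-month mean was the highest in 4. Over all genes the 9-month mean was the highest for 1566 and the lowest for 573 of 5647, and the 6-month mean was the lowest for 1399 and the highest for 708. These counts use the same 6- and 9-month mice as the calls and are a description. Pla2g7 had means of 66.8 at 3 months, 75.8 at 6, 25.5 at 9, 43.5 at 12, 58 at 16, 70.8 at 19 and 58.2 at 24 months. Clec4a1 ran through 51, 59.2, 27.5, 43.5, 40.2, 45.8 and 59.5, and Cyb5r4 through 11.8, 20.2, 8.75, 15.5, 20.8, 18 and 21.5 at the same ages. All 3 were at their lowest at 9 months. Slc2a5 ran through 382, 295, 558, 375, 372, 425 and 376, and Tmem119 through 1983, 1471, 2504, 1710, 1590, 1909 and 1538. Tgm2 was at 15 and 9.25 in the 3- and 6-month males, at 55.5 at 9 months, and between 21 and 44.2 later.

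Females of the same ages gave an independent set of mice, 2 of 6 months and 3 of 9 months. By limma 0 genes were called there (194 nominally, of which 52 were higher and 142 lower). Without 9-month female 1 there were 38, of which 2 were higher and 36 lower, and without 9-month female 3 there was 1, which was lower. Of the 31 genes called higher in males 22 had a female log2 fold change above 0 (71.0%, against 46.5% of all genes), with a median of 0.07, and of the 9 called lower 8 were below 0 (88.9%, against 53.5% of all genes), with a median of -0.50. Slc2a5 was at 423 and 355 in the 6-month females and at 524, 681 and 577 in the 9-month ones, with groups apart. Tgm2 was at 19 and 24 and then at 34, 28 and 43, also apart. Clec4a1 was at 25 and 49 and then at 25, 25 and 24, Cyb5r4 at 12 and 18 and then at 13, 5 and 6, and Pla2g7 at 35 and 59 and then at 18, 53 and 29, and the groups of these met or overlapped. The female log2 fold changes of the 5 were 0.61 (SE 0.22) for Slc2a5, 0.67 (SE 0.40) for Tgm2, -0.49 (SE 0.31) for Clec4a1, -0.91 (SE 0.52) for Cyb5r4 and -0.57 (SE 0.42) for Pla2g7. As lists, homeostatic genes had a female median of 0.02 (52.9% above 0) and microglia markers of -0.03 (46.2%), against -0.02 (46.5%) over all genes. The female median was -0.7 for neutrophil markers and -0.46 for monocyte and macrophage markers (10% above 0 in each). It was -0.15 for erythroid and -0.1 for border macrophage markers. Whether a list changed differently in the sexes was not tested.

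The difference between the sexes was tested by an interaction term. Of the genes called in males none passed, with a lowest adjusted p of 0.189 among the higher and of 0.467 among the lower genes (limma), which does not show that the sexes changed alike. Over all genes 1 passed (0.0177%), Tnfaip3, which encodes the NF-kB inhibitor A20. It was at 21, 27, 25 and 37 in the 6-month males and at 47, 54, 44 and 54 in the 9-month males, but at 79 and 80 in the 6-month females and at 37, 19 and 34 in the 9-month females. The groups were apart in both sexes and in opposite directions, and the log2 fold changes differed by 2.29 (limma adjusted p = 0.0177). After median-ratio scaling 0 genes had a sex difference by limma (350 nominally).

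**Figure D5:**
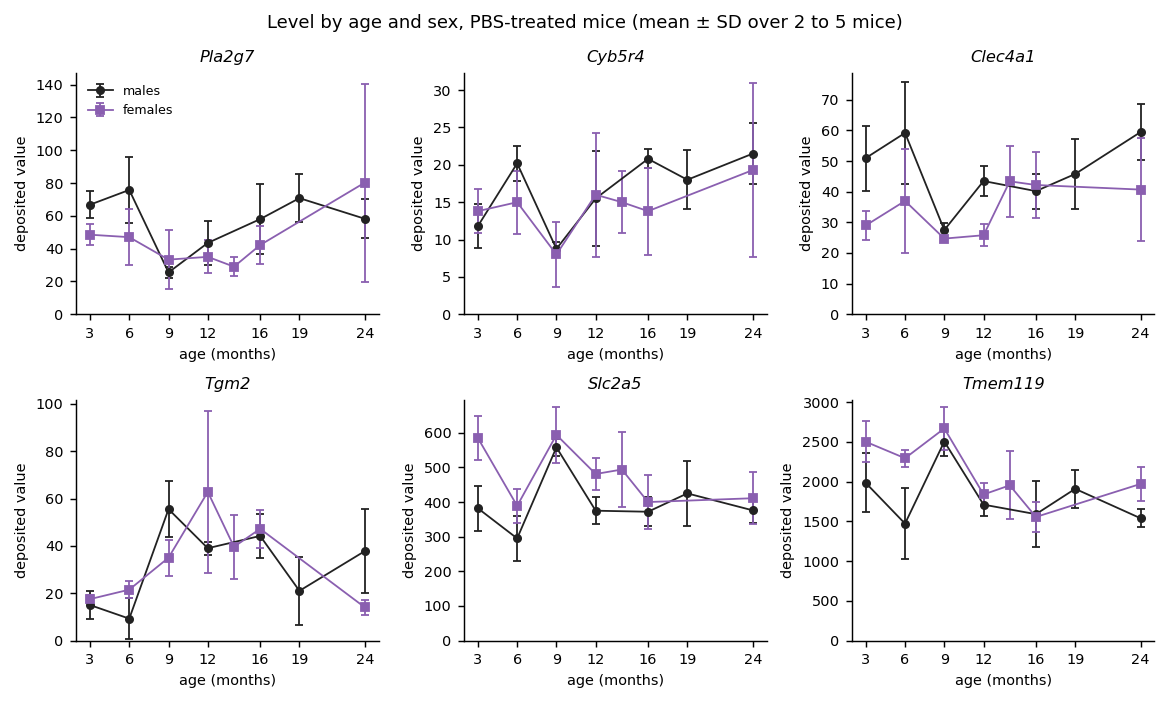
Mean deposited value ± SD (vertical axes, from 0) of 6 genes against age in months in PBS-treated males (black circles) and females (violet squares), over 2 to 5 mice a point. In males Pla2g7, Cyb5r4 and Clec4a1 are at their lowest and Slc2a5, Tmem119 and Tgm2 at their highest at 9 months, and in females Slc2a5 and Tmem119 are also at their highest and Cyb5r4 and Clec4a1 at their lowest at that age.

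The batches that the authors adjusted for are not named in the sources used here, so that a batch that differs between the 6- and 9-month mice cannot be told apart from age. The depth of the libraries is unknown, since the values are not counts.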

How the data were processed

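Polyadenylated RNA of sorted microglia was sequenced from 1 mouse a library. Per the labels and the study's methods, SOAPnuke was used to filter reads, HISAT2 2.0.4 to align them to the mm10 genome, Bowtie2 2.2.5 to align them to coding genes, and RSEM 1.2.12 for FPKM. Batch effects were removed by the authors over all libraries with ComBat_seq, and genes averaging under 10 FPKM were dropped, so that the deposited value is a score, a batch-adjusted FPKM rounded to whole numbers (297 values are not whole), with no count or depth behind it. A rounded value carries an error that matters most for low genes, and a filter on the average leaves low genes untested.

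Groups and mouse numbers came from the sample titles. Values were taken as log2(value + 1) and fitted by limma 3.58.1 in R 4.3.3 with a variance trend, with all 27 PBS-treated males in 7 age groups, so that the spread is shared between ages. A gene was called at a Benjamini-Hochberg adjusted p under 0.05 and a fold over 1.5 over all 5647 genes. The limma p-values rest on the spread between mice pooled over the 7 ages. For the median gene the 6-month mice varied more than the males of any other age, and with the 6- and 9-month groups alone 4 genes were called. Count tests could not be used on these values. Summed markers were compared by two-sided exact permutation tests (SciPy 1.17.1). Scripts were tested on simulated data. The genes named are all those called with or without median-ratio scaling, microglia markers, a few genes of the study and, as examples that did not pass, the most changed members of lists. A few items that the rule covers are not reported here. The comparison, its 46 gene lists and these rules were chosen with earlier results of these data known. Gene positions are from GENCODE vM21 and promoters from RefSeq, both on the build of mm10. Alternatives were other scalings, pseudocounts, filters, variance models, sets of libraries, a replicate block and leaving out each mouse.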

Additional observations from a re-analysis of the deposited data

Results flagged for a closer look

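In 134 groups of 4 mice, each a gene of the naming rule at one age, the highest or lowest mouse was tested for its distance from the others by Dixon's criterion, and 8 groups passed it. Chance flags about 1 in 20 groups. At 6 months mouse 4 was the far highest for Mid1ip1 (76), Slc4a1ap (10) and Fcrls (2074), mouse 1 for Tomm34 (47) and mouse 2 for Gm20594 (232). At 9 months mouse 1 was the far lowest for Tuba1b (394) and the far highest for Nkg7 (28), and mouse 3 was the far lowest for Eif2s3x (21), where the other mice were all at 23. The change of Tnfaip3 differed between the sexes, by 2.29 on the log2 scale (males minus females, limma interaction term).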

How the results depend on the processing

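As deposited, 40 genes were called (31 higher, 9 lower). Counts with other choices, as all, higher and lower where they moved by over 1.5 times, were 12 and 2 after median-ratio scaling, 9 and 2 with equal totals, 17 and 6 with quantile normalization, 4, 2 and 2 with the 6- and 9-month groups alone, 8, 3 and 5 with only the male libraries that hold values between 0 and 1, and 453, 360 and 93 at an unadjusted p. Median-ratio scaling with the 2 groups alone, added after the data were seen, gave 17, 2 and 15. Leaving out each mouse gave 5 to 250, 2 to 221 and 3 to 29, and after median-ratio scaling 4 to 93 in place of 12. Of the calls 77.5% were higher as deposited, 16.7% after median-ratio scaling, 22.2% with equal totals and 35.3% with quantile normalization. The cause of these differences was not tested. The 40 genes kept their direction in every alternative that tested them. In females leaving out a mouse gave 0 to 38 calls, 36 of the 38 lower, and median-ratio scaling left 0 sex differences.

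Replicate numbers are shared between the groups, but same-numbered mice did not deviate together (correlations of -0.068, -0.194, 0.0243 and -0.147), so the numbers do not pair the mice. With a replicate block in the 2 groups alone 17 genes were called, 7 of them higher and 7 of them among the 40.

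Among the named genes, directions turned only in ones that were not called. The log2 fold change of Il1rn was -0.10 with a pseudocount of 5, -0.09 after median-ratio scaling, -0.08 after it with the 2 groups alone, -0.02 with equal totals, -0.38 with quantile normalization and -0.44 to 0.39 without a mouse. That of Tsc22d3 was -0.08, -0.06, -0.02 and -0.05 in the scaled, 2-group scaled, equal-total and quantile fits and -0.38 to 0.28 without a mouse. Without a mouse Aif1 ranged from -0.21 to 0.04, Cd74 from 0 to 0.27, H2-Ab1 from -0.43 to 0.18, Ccl24 from -0.45 to 0.13 and Fth1 from -0.11 to 0.01.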
